A study of Bos taurus with 6 samples.

Results

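The miR-193 and miR-365 miRNAs were examined in granulosa cells, the hormone-producing cells around the oocyte, of Bos taurus. Names were taken by their family, miR-193 or miR-365, with any letter or arm suffix. The files held 6 such names of 755 mature bovine miRNAs. They were bta-miR-193b, bta-miR-193a-5p, bta-miR-193a-3p, bta-miR-193a, bta-miR-365-5p and bta-miR-365-3p. Reads were found for 5 of the 6, and 4 of the 353 miRNAs that were detected in a group and tested belonged to them. Detection in a group meant that 2 or more of its 3 libraries held a read of the miRNA.

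Small RNA was sequenced from granulosa cells in 3 libraries of preovulatory dominant follicles (D1 to D3) and 3 of anovulatory subordinate follicles (S1 to S3). All came from Simmental heifers whose cycle was synchronised with prostaglandin and GnRH analogues and whose ovaries were collected at slaughter on day 19. Outer diameter set the type of each follicle. Each library was a pool of RNA, both types came from the same animals, and there were far more subordinate than dominant follicles, so the spread between libraries need not mean the same in the 2 groups.

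A miRNA is cut from a hairpin precursor whose 5′ arm (5p) and 3′ arm (3p) each give a short RNA, and in most cases 1 arm is kept in larger amounts. Once loaded on an Argonaute protein, it lowers the translation or stability of mRNAs that match its seed. In mammals the miR-193 and miR-365 genes lie beside each other in 2 places, miR-193b with a miR-365 copy and miR-193a with the other. The miR-193b and miR-365 cluster is best known from brown fat cell differentiation, and the miR-193 family from work on tumour suppression. The 3p miRNAs of miR-193a and miR-193b share a seed, and the seed of miR-365-3p is a different one.

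All 5 precursors behind the 6 names were found in RefSeq annotation of assembly ARS-UCD2.0, a later build than the UMD3.1 used for these files, so positions are not given. MIR193B and MIR365-1 were neighbours, and the annotated gene LOC100849865 lay between or over them. MIR365-2 and MIR193A were neighbours on another chromosome, with the annotated genes LOC132343021 and MIR2333 between or over them. Bta-miR-2333, the miRNA named for MIR2333, had 0 reads in each of the 6 libraries. MIR193A-2, the precursor of the name bta-miR-193a, lay on neither of these chromosomes, with no other member beside it. Bta-miR-365-3p was listed under both miR-365 precursors with equal counts in every library, so its reads could not be assigned to a cluster. Bta-miR-365-5p was listed under MIR365-1 alone.

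The libraries held between 190385 and 364125 reads when each mature name was counted once, by its largest precursor row. Levels are given as CPM (counts relative to library size after scaling by the TMM factors of edgeR), without a correction for length. At this depth 3 reads were worth between 8.86 and 13.9 CPM, and a smaller level could not be told from 0. Intervals on single libraries cover counting error only. The 6 names together took 310.5, 389.6 and 248.4 CPM in dominant follicles and 289.4, 469.0 and 296.4 CPM in subordinate follicles. Their summed level overlapped between the groups (exact permutation test, two-sided, p = 0.7).

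Bta-miR-365-3p was lower in dominant than in subordinate follicles, while the other members tested showed no detectable change. It had 12, 8 and 12 reads in D1, D2 and D3 and 24, 43 and 22 reads in S1, S2 and S3. In CPM these were 42.3, 37.1 and 38.2 against 70.9, 139.1 and 77.6. All dominant libraries lay below all subordinate libraries, and S2 stood highest. Over 3 libraries each, the means were 39.2 ± 2.76 CPM and 95.9 ± 37.6 CPM (SD).

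For bta-miR-365-3p this was a log2 fold change, dominant over subordinate, of -1.28 (standard error 0.39, 95% interval -2.17 to -0.38, adjusted p = 0.0469 from the quasi-likelihood test of edgeR). Subordinate follicles thus had 2.42 times the level of dominant follicles, with an interval of 1.30 to 4.51. The median log2 fold change of all 353 miRNAs was -0.20, and relative to it bta-miR-365-3p changed by -1.08. Scaling by total count moved that median to -0.01, and the relative change was then -1.04.

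The limits of the study were used to call a miRNA: a change of 2-fold or more either way, p up to 0.05 and adjusted p up to 0.1. Of the 4 members tested, 1 was called and it was lower in dominant follicles. Over all miRNAs tested, 76 of 353 were called (21.5%), and 34 (9.63%) were called lower and 42 higher in dominant follicles. With total count scaling the higher calls made up 67.1% of all calls, against 55.3% with TMM factors. The groups did not overlap in CPM for 1 of the 4 members and for 130 of all 353 (36.8%), so a lack of overlap was common. Of all miRNAs tested, 51 had a more negative fold change than bta-miR-365-3p.

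The call of bta-miR-365-3p rested on few reads and on single libraries. Without D1 the log2 fold change was -1.34 and the adjusted p = 0.122 by the same edgeR test. Without D2 these were -1.21 and 0.125. Without S2, the highest library, they were -0.91 and 0.182. The call was kept when D3, S1 or S3 was left out, with adjusted p between 0.0571 and 0.0873. By counting error alone, the 95% Poisson interval of S2 began at 100.6 CPM, above the upper bound of 74.0 CPM in D1, the highest of the dominant libraries. The intervals of S1 and S3, which began at 45.4 and 48.6 CPM, overlapped those of all dominant libraries.

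**Figure D1:**
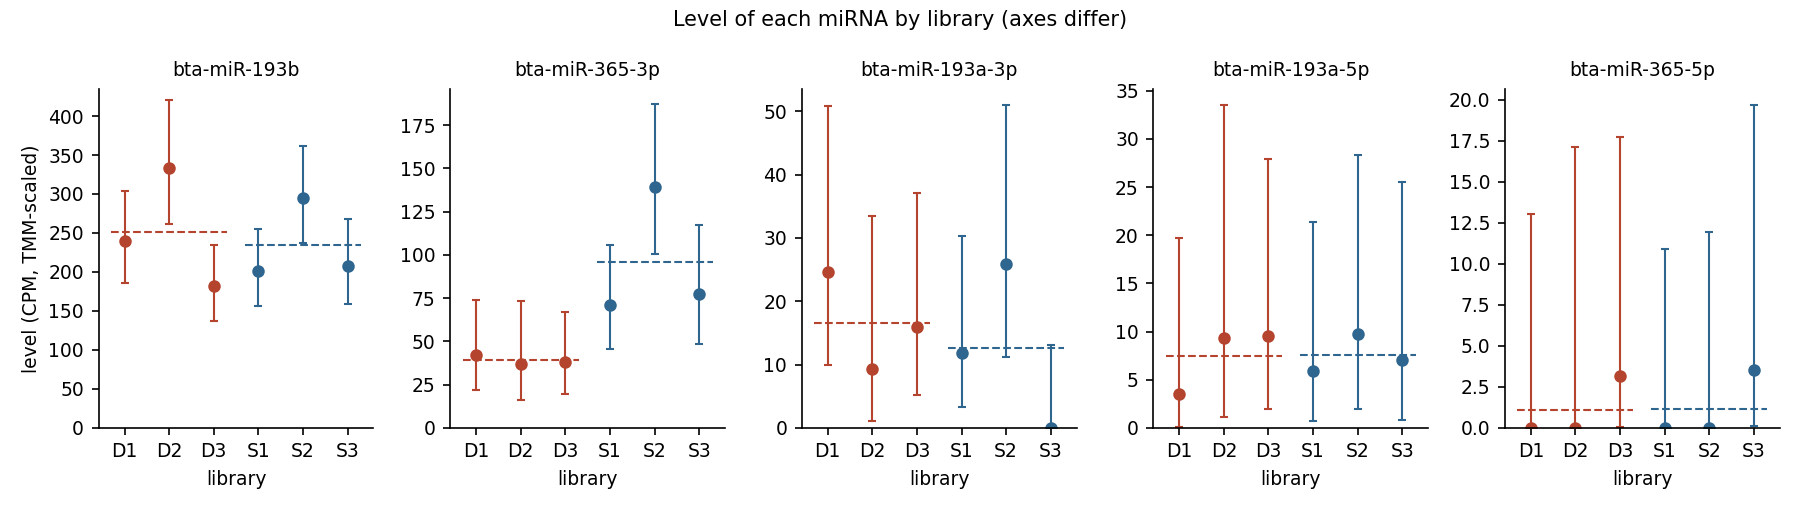
Level of each member with reads (CPM, y axis from 0 and different in each panel) in the libraries of dominant (D1 to D3, red) and subordinate follicles (S1 to S3, blue); bars are two-sided 95% Poisson counting intervals, which reach 13.0 CPM for the count of 0 of bta-miR-193a-3p in S3, and dashed lines are group means. The groups are separate for bta-miR-365-3p, at 37.1 to 42.3 against 70.9 to 139.1 CPM, and overlap in the other panels.

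Bta-miR-193b was the most abundant member and showed no detectable difference between follicle types. It had 68, 72 and 57 reads in D1 to D3 and 68, 91 and 59 reads in S1 to S3. The corresponding levels were 239.9, 333.9 and 181.5 CPM in dominant and 200.8, 294.3 and 208.2 CPM in subordinate follicles. The groups overlapped throughout, and replicate 2 was the highest in each group. Means were 251.8 ± 76.9 and 234.4 ± 52.0 CPM (SD, n = 3 each). This placed bta-miR-193b at rank 122 of 353 in dominant and at rank 118 in subordinate follicles. Its log2 fold change was 0.096 (standard error 0.30, adjusted p = 0.831 from edgeR). The 95% interval of -0.58 to 0.77 allows a level in dominant follicles between 0.668 and 1.71 times that in subordinate follicles.

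Bta-miR-193a-3p, which shares its seed with the miR-193b 3p miRNA, was found at a much lower level. It had 7, 2 and 5 reads in dominant and 4, 8 and 0 reads in subordinate follicles. In CPM these were 24.7, 9.28 and 15.9 against 11.8, 25.9 and 0, and the groups overlapped. S3 had no read, and 3 reads, taken as the limit for a count of 0, were worth 10.6 CPM there. The log2 fold change was 0.40 (standard error 0.87, adjusted p = 0.765 from edgeR), and its interval of -1.59 to 2.39 leaves a change of several fold in either direction possible. Bta-miR-193b of the same family had many more reads, and whether any of them were counted on bta-miR-193a-3p was not tested.

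Bta-miR-193a-5p, from the other arm of the same precursor, had 1, 2 and 3 reads in dominant and 2, 3 and 2 reads in subordinate follicles. It met the detection rule in both groups and was tested, but no library had more than 3 reads, so no fold change is given. It was not called. Bta-miR-365-5p had 0, 0 and 1 reads in dominant and the same numbers in subordinate follicles, and was below the detection rule in both. The name bta-miR-193a, listed under MIR193A-2, had 0 reads in all 6 libraries, and the same limit of 3 reads was worth 13.9 CPM in D2 and less in the others.

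**Figure D2:**
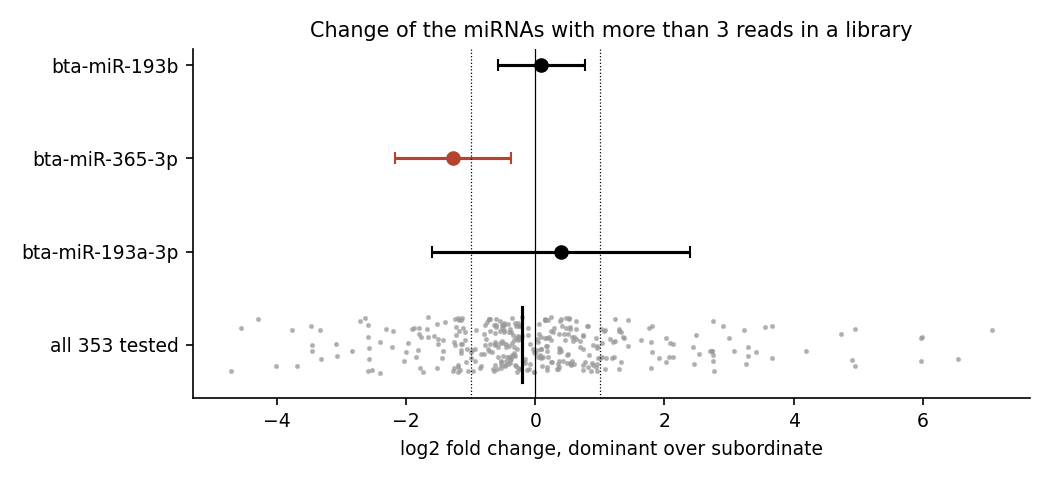
Log2 fold change of dominant over subordinate follicles (x axis) of the members with more than 3 reads in a library, with 95% intervals from edgeR, above all 353 tested miRNAs (grey dots, spread vertically for sight, with a bar at their median of -0.20). Dotted lines mark a log2 fold change of 1 in either direction; bta-miR-365-3p (red) at -1.28 was called, and the intervals of bta-miR-193b and bta-miR-193a-3p include 0.

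The order of the mean levels was the same in the 2 groups, and it was not settled for the lower members. Bta-miR-193b was first, followed by bta-miR-365-3p, bta-miR-193a-3p, bta-miR-193a-5p, bta-miR-365-5p and bta-miR-193a. The ranges of bta-miR-193b and bta-miR-365-3p did not overlap in either group, nor did those of bta-miR-365-3p and bta-miR-193a-3p. Bta-miR-193a-3p and bta-miR-193a-5p overlapped in each group, as did bta-miR-365-5p and bta-miR-193a. Bta-miR-193a-5p and bta-miR-365-5p lay at or under 3 reads in every library. Of all reads of the members, bta-miR-193b took 77.3, 85.7 and 73.1% in dominant and 69.4, 62.8 and 70.2% in subordinate follicles. Bta-miR-365-3p took 13.6, 9.52 and 15.4% in dominant and 24.5, 29.7 and 26.2% in subordinate follicles.

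Ratios between members were computed within each library, where depth cancels, as log2 of the read counts after adding 1 read. For 5 ratios, the level was tested with an exact sign-flip test on 6 libraries. The difference between follicle types was tested with an exact permutation test. Both were two-sided and adjusted over the 5 ratios. The smallest p is 0.03125 for the first test and 0.1 for the second, so a difference between groups could not pass 0.05. Since both follicle types came from the same heifers, the libraries may not be independent. The sign-flip p-values may then be too small, and the permutation p-values may be off in either direction. With the 3 replicate numbers as pairs the smallest sign-flip p is 0.25, and no level or difference below could then pass 0.05.

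For the miR-365 arms, 3p exceeded 5p in each of the 6 libraries. Over all libraries 2 of 123 reads were bta-miR-365-5p, or 1.63% (95% Wilson interval 0.447 to 5.74%). As log2, 5p over 3p came to -3.87 ± 1.01 (SD, n = 6 libraries, exact sign-flip p = 0.03125, adjusted p = 0.0391), and it depends on the read added, since 5p was at 0 in 4 libraries. The files list no 5p name for MIR365-2, so 5p reads of that hairpin would be counted only where they match bta-miR-365-5p.

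The miR-193a arms were closer to each other. Bta-miR-193a-5p made up 13 of 39 reads, or 33.3% (95% Wilson interval 20.6 to 49.0%). The 3p arm was higher in 4 libraries, the arms were equal in D2, and 5p was higher in S3, where 3p had no read. As log2, 5p over 3p came to -0.48 ± 1.21 (SD, n = 6 libraries, exact sign-flip p = 0.375, adjusted p = 0.375).

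Bta-miR-193b exceeded bta-miR-193a-3p in every library, with 415 against 26 reads in all. Its share of the reads of both was 94.1% (95% Wilson interval 91.5 to 95.9%). As a log2 ratio this was 4.01 ± 1.08 (SD, 6 libraries, exact sign-flip p = 0.03125, adjusted p = 0.0391). No difference in this ratio was detectable between the follicle types (exact permutation test, p = 0.5, adjusted p = 0.6).

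The proportion of bta-miR-193b to its neighbour bta-miR-365-3p did not overlap between the libraries of the 2 follicle types. The test below could not establish a difference, and how often other ratios lacked overlap was not computed. For each read of bta-miR-365-3p there were 5.67, 9.0 and 4.75 reads of bta-miR-193b in D1 to D3. In S1 to S3 there were 2.83, 2.12 and 2.68. Every dominant library had a higher proportion than every subordinate library. The log2 ratio was 2.53 ± 0.44 in dominant and 1.30 ± 0.21 in subordinate follicles (SD, n = 3 each), a difference of 1.22 (exact permutation test, p = 0.1, the smallest possible, adjusted p = 0.25). Leaving out any library kept this difference between 0.98 and 1.41. Over all 6 libraries the log2 ratio was 1.92 ± 0.74 (exact sign-flip p = 0.03125, adjusted p = 0.0391).

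As shares of the reads of both miRNAs, bta-miR-193b made up 85.0, 90.0 and 82.6% in dominant and 73.9, 67.9 and 72.8% in subordinate follicles. The Wilson interval of D1 began at 75.6%, above the end of S2 at 75.2%. That of D2 began at 81.5%, above the ends of S2 and of S3 at 81.3%. The intervals of the other pairs of a dominant and a subordinate library overlapped. Summed over 3 libraries, the shares were 86.0% and 71.0%. This comparison is not independent of the fold changes above, since it uses the same reads.

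**Figure D3:**
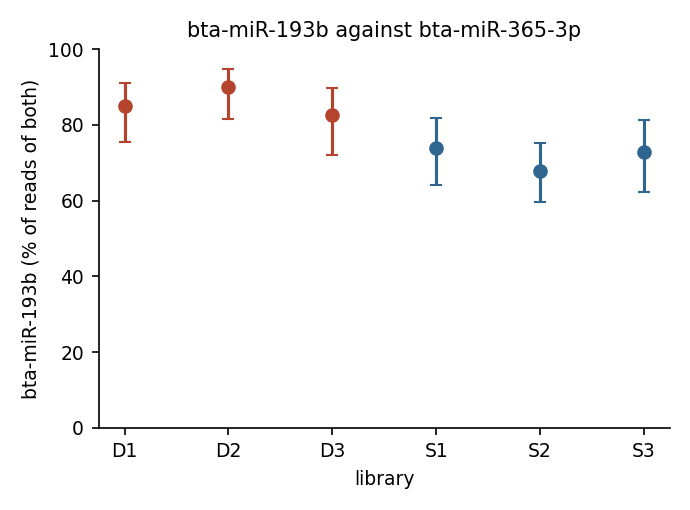
Share of bta-miR-193b among the reads of bta-miR-193b and bta-miR-365-3p (percent, y axis from 0) in each library of dominant (D1 to D3, red) and subordinate follicles (S1 to S3, blue), with 95% Wilson intervals. The dominant libraries lie between 82.6 and 90.0% and the subordinate libraries between 67.9 and 73.9%.

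The log2 ratio of bta-miR-193a-3p to bta-miR-365-3p was below 0 in all 6 libraries, at -2.09 ± 1.35 (SD, exact sign-flip p = 0.03125, adjusted p = 0.0391). It was -1.13 ± 0.44 in dominant and -3.04 ± 1.28 in subordinate follicles (SD, n = 3 each), without overlap (difference 1.91, exact permutation test, p = 0.1, adjusted p = 0.25). The subordinate mean was drawn down by S3, and without S3 the difference was 1.17. The reads of bta-miR-365-3p, which could not be assigned to a cluster, were the same as in its comparison with bta-miR-193b. This ratio is thus not an independent second result.

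The difference in fold change between cluster mates was set beside 16 other neighbouring miRNA pairs, of which 14 had both mates tested. The fold changes of bta-miR-193b and bta-miR-365-3p differed by 1.37 on the log2 scale. Over the 14 pairs this difference had a median of 0.69 and ran from 0.022 for bta-miR-30e-5p and bta-miR-30c to 1.84 for bta-miR-424-5p and bta-miR-503-5p. It was larger than for bta-miR-193b and bta-miR-365-3p in 4 of 14 pairs. Among the 12 pairs in which both mates averaged 10 reads or more, the median was 0.54, and 2 were larger, bta-miR-99b with bta-let-7e at 1.59 and bta-miR-99a-5p with bta-let-7c at 1.54. Gaps of this size between estimated fold changes were thus present in other pairs, and no gap was tested. Since the reads of bta-miR-365-3p could not be assigned to a cluster, its fold change need not be that of the copy beside bta-miR-193b.

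**Figure D4:**
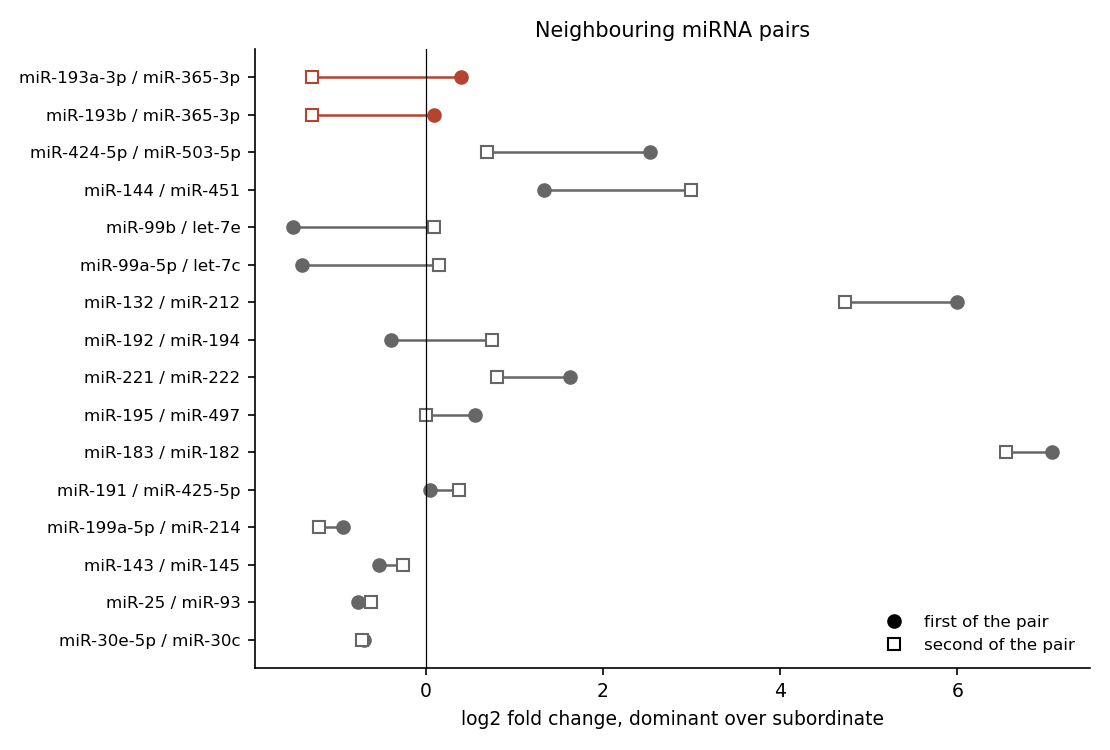
Log2 fold change of dominant over subordinate follicles for the mates of neighbouring miRNA pairs, the first as a filled circle and the second as an open square, joined by a line; the miR-193 and miR-365 pairs are red and at the top. Bta-miR-193b (0.096) and bta-miR-365-3p (-1.28) lie 1.37 apart, against a median of 0.69 over the 14 other pairs.

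Over the 6 libraries, the log2 CPM of bta-miR-193b and bta-miR-365-3p had a Pearson r of 0.12. Of the miRNAs averaging 10 reads or more, those most like bta-miR-193b were bta-miR-497 (r = 0.97), bta-let-7g (0.95), bta-miR-342 (0.93), bta-miR-194 (0.83) and bta-miR-34a (0.68). The first 3 had log2 fold changes of 0.0011, 0.021 and 0.11 and thus followed its ups and downs within groups. Those most like bta-miR-365-3p were bta-miR-10b (r = 0.96), bta-miR-92a (0.94), bta-miR-140 (0.93), bta-miR-148a (0.93) and bta-miR-335 (0.93), all with a negative fold change. These r describe 6 libraries that share the follicle type and the scaling, and no p is given.

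Markers of other cells were set beside the lower level of bta-miR-365-3p. In bulk RNA, fewer cells of a type and less RNA per cell cannot be told apart. Of 5 miRNAs typical of stroma and theca, 1 was called lower in dominant follicles, bta-miR-214 with a log2 fold change of -1.20 (adjusted p = 0.0417 from edgeR). The others were not called but also had negative log2 fold changes. These were -0.53 for bta-miR-143, -0.26 for bta-miR-145, -0.27 for bta-miR-199a-3p and -0.93 for bta-miR-199a-5p. The summed level of all 5 was 17601.3 to 27820.7 CPM in dominant and 21062.5 to 35748.2 CPM in subordinate follicles, with overlap. The endothelial bta-miR-126-3p and bta-miR-126-5p had log2 fold changes of -1.09 and -1.25 and neither was called (adjusted p = 0.105 and 0.113). Their summed level did not overlap, at 73.2 to 292.9 CPM against 354.3 to 539.9 CPM. Of all single miRNAs tested, 36.8% lacked overlap. None of the 5 white blood cell miRNAs was called, 1 of which was not tested, and their sums overlapped, at 1609.4 to 2402.8 CPM against 853.8 to 2028.6 CPM. Of 3 red blood cell miRNAs, 2 were called higher in dominant follicles, against 42 of all 353 tested. Red blood cell sums were 1047.5 to 13090.0 CPM in dominant and 808.0 to 1529.8 CPM in subordinate follicles. These sums overlapped, since D3 lay within the subordinate range. No marker was at 0 in all libraries, and the part of other cells in the result for bta-miR-365-3p was not tested.

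**Figure D5:**
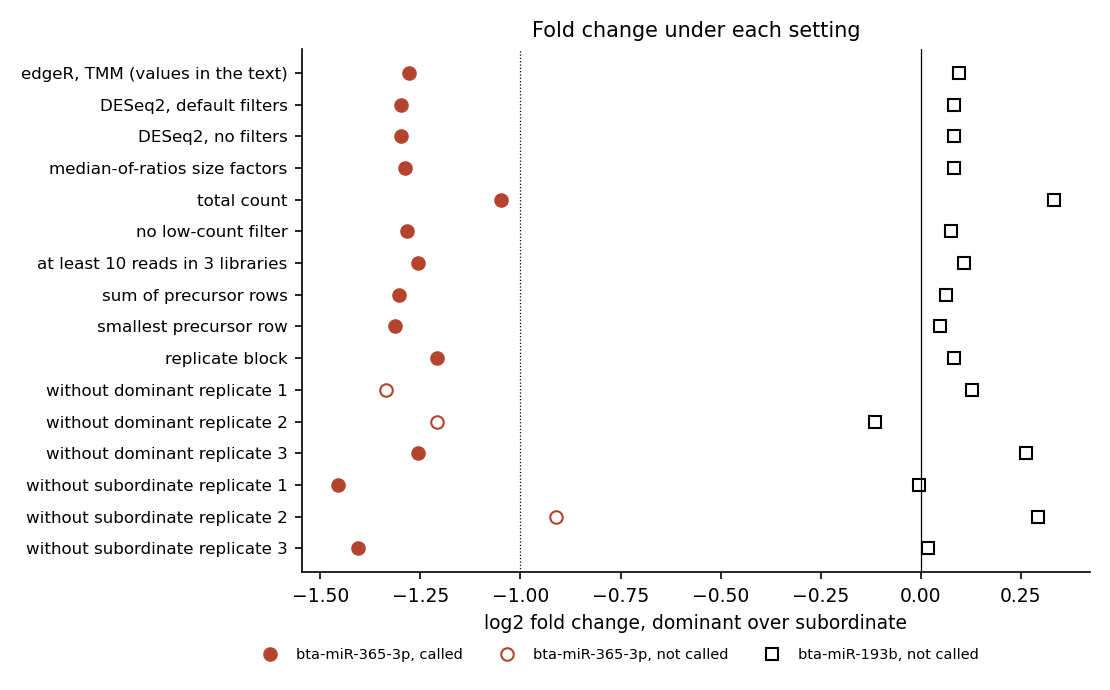
Log2 fold change of dominant over subordinate follicles (x axis) of bta-miR-365-3p (red circles, filled where called) and bta-miR-193b (squares) under each setting (y axis). Bta-miR-365-3p stays below 0 in every setting, between -1.46 and -0.91, and its call is lost without dominant replicate 1, dominant replicate 2 or subordinate replicate 2.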

How the data were processed

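The authors sequenced small RNA from 6 pools of granulosa cell RNA. Per the labels and the methods, base calling used CASAVA 1.8.0, adapters were trimmed with Cutadapt and Seqtk, reads were mapped to the bovine genome (UMD3.1) with Bowtie, and known miRBase miRNAs were counted with the miRDeep2 workflow. The deposited values are counts without normalization, 906 rows per library for pairs of a mature miRNA and a precursor. Groups and replicate numbers came from the labels.

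The largest precursor row of each mature name was used. Counts were tested with edgeR 4.0.16 in R 4.3.3 (TMM, quasi-likelihood, follicle type as the only term, Benjamini-Hochberg over 353 miRNAs). Standard errors were derived from the fold change and its F statistic. On simulated data for this comparison, 193 of 336 miRNAs were given a log2 fold change of 2 in either direction. Of these, 78.2% were recovered (97.5% where the mean reached 10 reads). Smaller changes, such as that of bta-miR-365-3p, were not simulated. Ratios, intervals and figures were made in Python 3.11.15 with scipy 1.17.1.

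Alternatives were DESeq2 1.42.0, other scalings, filters, precursor rows, pseudocounts and thresholds, a replicate block and each library left out. Nothing in the labels says that a replicate number marks an animal, so the main test did not use the numbers, and the block is an alternative. Same-numbered libraries deviated together from their group means (r of 0.14, 0.38 and 0.41 over 194 miRNAs). Differently numbered libraries gave -0.42 to 0.19, so the first pair did not stand apart. Named miRNAs were all members, the 5 most correlated with each member of at least 10 reads, and fixed lists of neighbouring pairs and cell markers. Members and lists were chosen with earlier results of these data known. Bta-miR-2333 was added for its position. P-values measure the spread between pools.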

Additional observations from a re-analysis of the deposited data

How the results depend on the processing

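The direction of bta-miR-365-3p and its call held under DESeq2, other size factors, other filters, other precursor rows and the replicate block, with log2 fold changes from -1.31 to -1.05 and adjusted p from 0.0282 to 0.0926. With the replicate block it was -1.21 (adjusted p = 0.0655), and the block changed no call of a member. Leaving out 1 library gave -1.46 to -0.91 for bta-miR-365-3p and 0 to 1 members called, -0.11 to 0.29 for bta-miR-193b (negative without dominant replicate 2 or subordinate replicate 1), and -0.14 to 1.37 for bta-miR-193a-3p (-0.14 without subordinate replicate 3, 1.37 without subordinate replicate 2). With 5 libraries the sign-flip test cannot go below 0.0625, so the 4 ratios past 0.05 lost it by construction. Their log2 ratios stayed at -4.10 to -3.55 for the miR-365 arms, 3.63 to 4.19 for bta-miR-193b to bta-miR-193a-3p, 1.70 to 2.09 for bta-miR-193b to bta-miR-365-3p and -2.37 to -1.60 for bta-miR-193a-3p to bta-miR-365-3p. Differences between groups ran from -1.29 to 0.092 for the miR-193a arms and from -1.18 to 0.092 for bta-miR-193b to bta-miR-193a-3p, and both changed sign without subordinate replicate 3. Summing precursor rows counts bta-miR-365-3p under both precursors, which moved the log2 ratio of bta-miR-193b to it to 0.96, that of bta-miR-193a-3p to it to -3.04 and that of the miR-365 arms to -4.82. Adding 0.5 in place of 1 read moved the miR-365 arms to -4.63. For bta-miR-193a-3p, with 0 to 8 reads per library, the depth left a change of several fold in either direction possible.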
